A study of Mus musculus with 15 samples.

Results

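Livers of methotrexate-treated mice were compared with and without nitrate in the drinking water. Of the 15 libraries of the series, 10 entered the comparison, chosen by their titles: 5 labelled MTX+Nit and 5 labelled MTX. All mice were of wild-type (WT) genotype, and their age and sex are not given in the labels. MTX mice received 1 intraperitoneal injection of methotrexate (MTX) at 20 mg/kg, and the liver was taken 24 h later. MTX+nitrate mice drank water with 2 mM nitrate for 5 days and were injected with the same dose on day 5. The 5 untreated control libraries are used for levels and for the shared estimate of spread. No group received nitrate alone, so its effect was measured on top of methotrexate only. Whether separate mice gave the libraries is not stated in the labels. The p-values therefore describe the spread among these libraries, some of which may be technical.

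Methotrexate is an antifolate that limits the supply of folate carriers for nucleotide synthesis, and it is known for liver toxicity. Nitrate is reduced to nitrite by oral bacteria and further to nitric oxide in tissues. In the liver, Wnt/β-catenin signalling, the pathway named in the title of the study, sets gene expression around the central vein: Wnt ligands and R-spondins bind Frizzled and Lgr receptors, β-catenin enters the nucleus, and targets such as Axin2 are transcribed.

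The 10 libraries held 17273003 to 19274497 counts each. Levels are in CPM, the share of a library taken by a gene, with library sizes scaled by the TMM method of edgeR. Single genes were tested with edgeR's quasi-likelihood test, adjusted by Benjamini-Hochberg over the 14219 genes that passed the filter, and those under an adjusted p of 0.05 are called changed. Albumin stood at 89900 ± 2710 CPM in MTX and 79000 ± 15300 CPM in MTX+nitrate (SD, n = 5), and 9 of 22 markers of pancreas, fat and muscle were at 0 in all 10 libraries. On the first principal component of the 10 libraries, with 20.8% of the variance, the MTX group spanned -31.4 to -14.44 and the MTX+nitrate group 21.04 to 28.48. Of 9 library measures compared by a two-sided exact permutation test over all assignments of 5 against 5, the lowest adjusted p was 0.0714. It was shared by the share of counts in long intergenic non-coding RNAs, the number of genes with a count and a trend on transcript length that is given beside the gene groups it touches.

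Between MTX+nitrate and MTX libraries 613 genes were called changed, 4.31% of those tested. The 337 higher genes made up 2.37% and the 276 lower genes 1.94%. Most changes were modest, with a median rise of 1.55-fold and a median fall of 1.34-fold, and 99 genes changed by at least 1 on the log2 scale (72 higher, 27 lower). The 5 libraries of each group did not overlap for 446 of the called genes, and for 890 (6.26%) of all genes tested, 471 higher (3.31%) and 419 lower (2.95%). The count depended on single libraries. It was 166, 219, 333, 371 and 569 without MTX libraries 1 to 5, and 280, 184, 285, 325 and 600 without MTX+nitrate libraries 1 to 5. In all 10 of these fits 111 genes stayed called, 73 higher and 38 lower. Of the 15 largest rises named by rule, 11 did so, and of the 15 largest falls 4 did so.

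**Figure D1:**
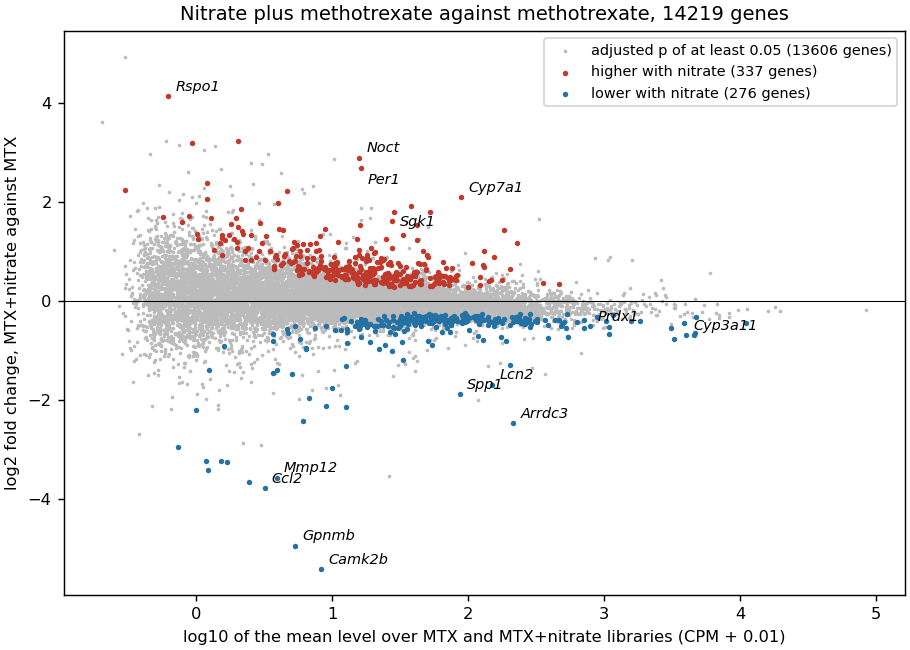
Log2 fold change of each of 14219 genes (vertical axis) against the log10 of its mean CPM over the 10 libraries (horizontal axis), with called genes coloured by direction. The 337 higher genes reach a log2 change of 4.14 (Rspo1) and the 276 lower genes -5.42 (Camk2b).

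Among the rises named by rule, Noct and Per1 had the largest fold changes. Noct encodes nocturnin, a rhythmic phosphatase acting on NADPH (chr3:51224447-51251644 in GRCm38, plus strand). Noct was at 3.02, 7.21, 2.97, 4.49 and 1.09 CPM in MTX libraries 1 to 5 and at 20, 30.5, 21.4, 39.3 and 28.5 CPM in MTX+nitrate libraries 1 to 5. The lowest MTX+nitrate library was well above the highest MTX library, and control libraries held 1.16 to 4.38 CPM. The rise of Noct was 7.41-fold (log2 2.89 ± 0.39 SE, adjusted p = 0.00304). Per1 (chr11:69095217-69109960), a repressor within the clock, was at 2.1, 8.55, 4.48, 4.25 and 2.42 CPM in MTX libraries 1 to 5 and at 13.9, 34, 31.4, 28.5 and 32.7 CPM in MTX+nitrate libraries 1 to 5. The groups did not overlap, although MTX+nitrate library 1 was well below the rest of its group and below control library 1 at 17.2 CPM. Per1 rose 6.42-fold (log2 2.68 ± 0.5, adjusted p = 0.0151). Both calls held in all 10 fits that left out 1 library.

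The rest of the clock did not follow Per1 and Noct past the threshold. Per1 was the 1 called member of 18 core clock genes (5.56%, median log2 fold change -0.02, against 4.31% and 0.008 over all genes), and Noct the 1 called of 17 clock output genes (5.88%, median 0.08). Per2, the paralog of Per1, was at 12.8 ± 5.44 CPM in MTX and 15.1 ± 9.58 CPM in MTX+nitrate (log2 0.24 ± 0.39, adjusted p = 0.762), with both groups overlapping widely.

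Sgk1, a kinase induced by glucocorticoids that acts on ion channels and transporters (chr10:21882184-21999903, plus strand), had with Rasgef1b the lowest adjusted p of all genes. Sgk1 was at 11.7, 17.2, 12.2, 10.9 and 16.5 CPM in MTX libraries 1 to 5 and at 44.5, 47.2, 31.4, 45.2 and 41 CPM in MTX+nitrate libraries 1 to 5. The MTX values lay in the range of the controls (10.8 to 17.5 CPM), and each MTX+nitrate library was above both groups. The rise was 3.06-fold (log2 1.61 ± 0.16, adjusted p = 9.87e-05). Of 24 glucocorticoid-induced genes 3 rose and 1 fell (16.7% called, median log2 fold change 0.1), against 4.31% called over all genes. Besides Sgk1 and Per1, Tsc22d3, whose product GILZ restrains inflammation, rose 2.02-fold from 48.2 to 132 CPM in MTX to 147 to 232 CPM in MTX+nitrate (adjusted p = 0.0278, 0.0655 without MTX library 1). Zbtb16, a zinc finger repressor, fell 2.28-fold (46.1 ± 17.5 to 20.2 ± 5.47 CPM, adjusted p = 0.025). That call was lost without MTX library 3 or MTX+nitrate library 1, 2 or 3 (adjusted p up to 0.0545). The 4 called members of this list therefore did not change in 1 direction.

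To show what lies at the starts of these genes, the 250 bases before the start were read for the 10 of the 15 largest rises that the RefSeq promoter table holds (GRCm38.p6, 16 windows). Short patterns were searched on both strands in all 32851 windows of the table. The E-box CACGTG, bound by CLOCK and BMAL1, was in 6.02% of windows. The CRE half-site TGACG, read by CREB, was in 17.8%. The palindrome AGAACA and TGTTCT with any 3 bases between, the consensus for the glucocorticoid receptor, was in 0.00913%, or 3 windows. In the 13254 windows of genes tested here the shares were 8.09%, 25.6% and 0.0151%. Of the 16 windows, 2 held the E-box (12.5%), 5 the half-site (31.2%) and 1 the palindrome, and no difference from those shares was tested. The windows with a match belonged to Per1, Sgk1, Rasgef1b and Srrm4. None held the full CRE TGACGTCA, found in 1.55% of all windows and including the half-site. Per1 and Sgk1 were chosen for printing because they sit on the clock and glucocorticoid lists. Both Per1 windows are printed, but of the 6 Sgk1 windows only 1, picked because it holds the palindrome. Matches are in capitals. The Per1 windows are chr11:69098699-69098948 and chr11:69099902-69100151 on the plus strand, and the Sgk1 window is chr10:21993640-21993889 on the plus strand, before 1 of 6 Sgk1 starts in the table.
Per1 first start: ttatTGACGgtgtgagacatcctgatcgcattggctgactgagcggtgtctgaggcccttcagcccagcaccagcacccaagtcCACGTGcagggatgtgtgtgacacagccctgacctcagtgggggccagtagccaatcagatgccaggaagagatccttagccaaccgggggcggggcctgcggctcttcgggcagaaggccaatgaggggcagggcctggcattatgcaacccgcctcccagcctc
Per1 second start: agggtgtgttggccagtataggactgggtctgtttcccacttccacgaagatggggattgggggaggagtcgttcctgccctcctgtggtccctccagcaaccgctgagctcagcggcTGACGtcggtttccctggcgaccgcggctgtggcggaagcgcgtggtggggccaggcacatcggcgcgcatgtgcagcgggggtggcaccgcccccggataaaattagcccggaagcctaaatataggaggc
Sgk1 start with the palindrome: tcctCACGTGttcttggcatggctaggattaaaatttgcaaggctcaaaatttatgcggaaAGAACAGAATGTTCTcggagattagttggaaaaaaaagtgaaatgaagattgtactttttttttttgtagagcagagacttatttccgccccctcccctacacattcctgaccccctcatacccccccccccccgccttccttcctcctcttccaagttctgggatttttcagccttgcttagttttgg
In the first Per1 window the half-site began 246 bases and the E-box 166 bases before the start, and in the second a half-site began 132 bases before it. In the Sgk1 window the palindrome began 189 bases and an E-box 246 bases before the start. A match is a description of these letters and not a measured binding site.

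Rasgef1b, a guanine nucleotide exchange factor gene that is quickly induced in activated macrophages (chr5:99217426-99729065), was at 13.1, 14.7, 10.1, 13.1 and 12.8 CPM in MTX libraries 1 to 5. In MTX+nitrate libraries 1 to 5 Rasgef1b was at 37.1, 69.2, 35.8, 32.2 and 47.9 CPM. The MTX values were tight and close to the controls at 9.7 to 11.9 CPM, while each MTX+nitrate library was far above them. Rasgef1b rose 3.48-fold (log2 1.80 ± 0.18, adjusted p = 9.87e-05). Sik1, a kinase induced by cAMP that phosphorylates CREB coactivators, was at 23.9, 17.5, 7.69, 12.3 and 18.3 CPM in MTX libraries 1 to 5. In MTX+nitrate libraries 1 to 5 Sik1 was at 139, 60.6, 27.6, 47.8 and 27.3 CPM. Library 1 was the highest in both groups, the 2 lowest MTX+nitrate libraries were close to the highest MTX library, and the fold change was 3.8 (log2 1.93 ± 0.39, adjusted p = 0.0191). Without MTX+nitrate library 1 the log2 change of Sik1 was lower, 1.36 being the lowest of the 10 fits, and all 10 called it.

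Of 34 fasting and cAMP-responsive genes 5 rose and 1 fell (median log2 fold change 0.15), against 2.37% higher and 1.94% lower over all genes. With length and GC offsets 3 were higher and 1 lower. Slc38a2, a neutral amino acid transporter, rose from 86.7 to 132 CPM in MTX to 140 to 235 CPM in MTX+nitrate (1.86-fold, adjusted p = 0.00953). Foxo1, the transcription factor that drives gluconeogenic genes when insulin is low, rose 1.68-fold (35.5 ± 5.04 to 59.7 ± 14 CPM, adjusted p = 0.0187). Cebpb rose 1.65-fold (98 ± 21.3 to 162 ± 27.5 CPM, adjusted p = 0.0191). For these 3 the groups did not overlap and all 10 fits kept the call. Ppp1r3b, a subunit that directs a phosphatase to glycogen and was named after its values were seen, rose 2.26-fold (139 ± 43.8 to 315 ± 88.7 CPM, adjusted p = 0.0308). It was lost without MTX library 1 or 5 or MTX+nitrate library 2, 3 or 4 (adjusted p up to 0.0707). The member that fell was Creb3l3, a liver factor of the fasting response, from 305 ± 33 to 235 ± 18.7 CPM (1.3-fold, adjusted p = 0.0466), called in 1 of the 10 fits, the one without MTX library 3 (adjusted p up to 0.107).

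Arrdc3, an arrestin-domain gene tied to β-adrenergic receptor turnover and insulin action, showed the opposite pattern to these rises. Arrdc3 was at 277, 86.4, 629, 511 and 323 CPM in MTX libraries 1 to 5 and at 68, 24.3, 85, 92.1 and 58.9 CPM in MTX+nitrate libraries 1 to 5. The groups overlapped only through MTX library 2, and controls held 453 to 671 CPM. Arrdc3 fell 5.56-fold (log2 -2.48 ± 0.41, adjusted p = 0.00828), and its log2 change against control was -0.64 in MTX (adjusted p = 0.353) and -3.11 in MTX+nitrate (adjusted p = 0.00136). Arrdc3 was 1 of 2 called among 27 insulin and glucose genes (7.41%, against 4.31% over all genes). The other was Gckr, the regulator of glucokinase (1.33-fold higher, adjusted p = 0.0464), which held in 3 of the 10 fits, those without MTX libraries 3 and 4 and MTX+nitrate library 1 (adjusted p up to 0.107).

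**Figure D2:**
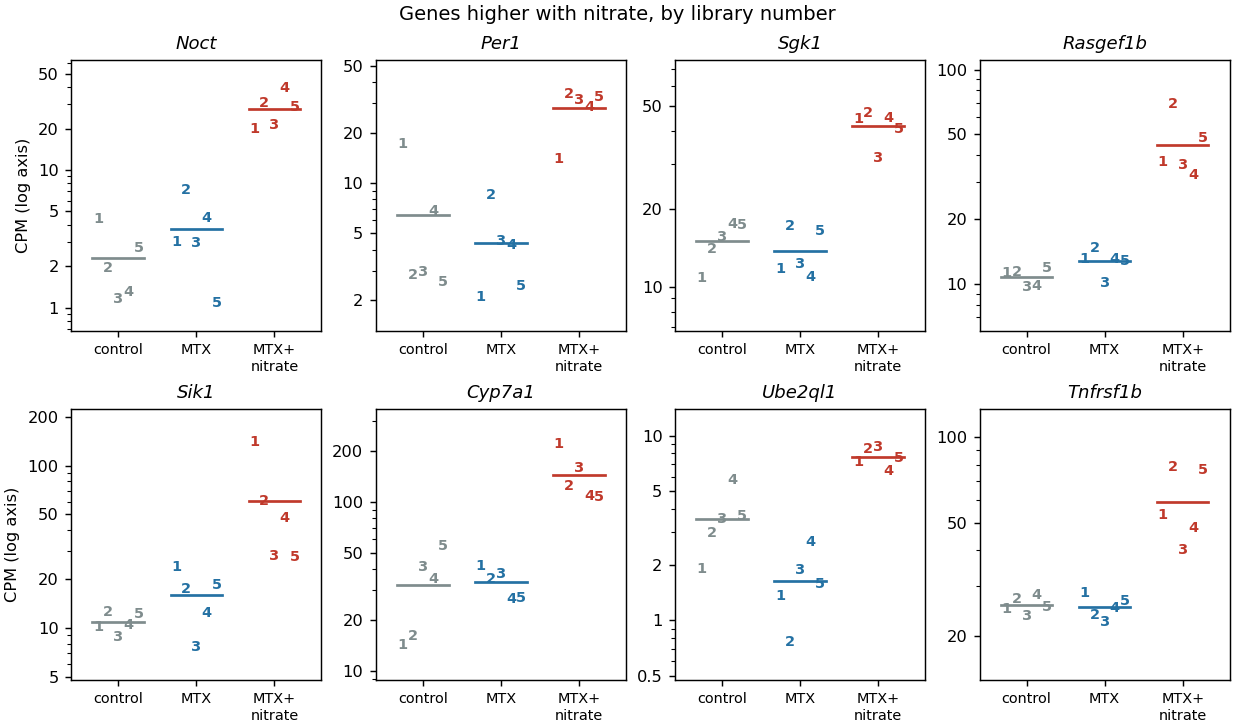
CPM on log axes for 8 genes that were higher with nitrate, with each digit a library by its number and each line a group mean (n = 5). In all 8 every MTX+nitrate library lies above every MTX library, and MTX+nitrate library 1 is the highest for Sik1 (139 CPM) and Cyp7a1 (221 CPM) and the lowest for Per1 (13.9 CPM).

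Cyp7a1, whose product controls the rate of bile acid synthesis (chr4:6265612-6275633, minus strand), was at 42, 34.8, 37.6, 26.5 and 27.2 CPM in MTX libraries 1 to 5. In MTX+nitrate libraries 1 to 5 Cyp7a1 was at 221, 124, 158, 109 and 107 CPM. No library overlapped, and controls spread from 14.2 to 54.7 CPM. The rise was 4.27-fold (log2 2.09 ± 0.32, adjusted p = 0.00579), and the log2 change against control was 0.06 in MTX (adjusted p = 0.933) and 2.16 in MTX+nitrate (adjusted p = 0.00294). All comparisons with control share libraries with the one between the treated groups, so their values are set side by side only. Of 29 bile acid genes 1 other was called (6.9% with Cyp7a1, against 4.31% over all genes). Akr1c6, an aldo-keto reductase with many close paralogs, fell 1.32-fold (1173 ± 144 to 887 ± 42.4 CPM, adjusted p = 0.024). The median of the list was -0.08, and 9 of 29 had a log2 change above 0.

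Further leading rises came from genes without a shared list. Ube2ql1, a ubiquitin-conjugating enzyme, was at 0.762 to 2.65 CPM in MTX and 6.43 to 8.69 CPM in MTX+nitrate (4.67-fold, adjusted p = 0.00296). Its MTX level was below control (log2 -1.12, adjusted p = 0.0466) and its MTX+nitrate level above control (log2 1.11, adjusted p = 0.0449). Tnfrsf1b, the second receptor for tumour necrosis factor, was at 28.4, 23.8, 22.5, 25.1 and 26.6 CPM in MTX libraries 1 to 5 and at 53.1, 78.3, 40.1, 47.8 and 76.4 CPM in MTX+nitrate libraries 1 to 5. No library overlapped, and Tnfrsf1b rose 2.34-fold (log2 1.23 ± 0.15, adjusted p = 0.00192). It was the 1 that rose among 35 apoptosis genes, while 2 fell, Endog and Cycs. This list had 8.57% called, against 4.31% over all genes, and a median log2 fold change of -0.07. Tcim rose 2.9-fold (adjusted p = 0.00897), the splicing regulator Srrm4 2.75-fold (adjusted p = 0.00934) and Hmcn2, an extracellular hemicentin, 2.72-fold (adjusted p = 0.00699). Spata2l rose 2.87-fold (adjusted p = 0.00498), but overlaps Cdk10 on the other strand, and since the strand setting of the counting is not given its reads cannot be told apart from those of Cdk10. Papln (3.91-fold, adjusted p = 0.0245) was lost without MTX library 1 or 2 or MTX+nitrate library 1 (adjusted p up to 0.0541), and Svep1 (3.63-fold, adjusted p = 0.0238) without MTX library 1 (0.0562). Sytl1 (2.8-fold, adjusted p = 0.0312) was lost without MTX library 2, 3, 4 or 5 or MTX+nitrate library 2 or 4 (up to 0.076).

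Kcnk5, Tob2, Tnfsf10 and Neat1, which stayed called in all 10 fits, were named after their values were seen. The potassium channel gene Kcnk5 rose 2.51-fold (18.8 ± 5.4 to 47.3 ± 14.3 CPM, adjusted p = 0.00799), the antiproliferative gene Tob2 1.91-fold (adjusted p = 0.00457) and the death ligand gene Tnfsf10 2.5-fold (adjusted p = 0.0103). Tnfsf10 had been lower in MTX than in control (log2 -1.12, adjusted p = 0.0198). The p53 target Trp53inp1 rose 1.7-fold (adjusted p = 0.025), the 1 called of 28 p53 targets (3.57%), and was lost without MTX library 1 or 2 or MTX+nitrate library 1 (up to 0.0583). Cdkn1a, the p21 cell cycle inhibitor, was at 7.74 to 39.1 CPM in MTX and 37.6 to 78 CPM in MTX+nitrate, with overlap between the groups (log2 1.25 ± 0.47, adjusted p = 0.129). The nuclear long non-coding RNA Neat1 rose 2.68-fold (101 ± 27.7 to 270 ± 94.5 CPM, adjusted p = 0.0073). Neat1 was 1 of 4 long intergenic non-coding RNAs called of 292, all 4 higher (median log2 0.18). That was 1.37% of the list, below the 4.31% called over all genes. The share of counts in such genes was 0.182% in MTX and 0.238% in MTX+nitrate (exact permutation p = 0.00794, the smallest possible).

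Of the Wnt pathway, which the title of the study names, 2 of 37 components (5.41%) and 2 of 16 target genes were called, against 4.31% over all genes. With length and GC offsets both components stayed called and neither target did. Fzd6, a Frizzled receptor (chr15:39006034-39038188), was at 2.9, 3.75, 5.3, 3.69 and 5.81 CPM in MTX libraries 1 to 5 and at 12.9, 8.96, 7.66, 5.94 and 8.35 CPM in MTX+nitrate libraries 1 to 5. In control Fzd6 was at 11 ± 2.18 CPM, above the means of MTX (4.29 CPM) and MTX+nitrate (8.77 CPM). The treated groups met closely at 5.81 and 5.94 CPM without crossing, and Fzd6 rose 2.04-fold (log2 1.03 ± 0.22, adjusted p = 0.0245). Its call was lost without MTX library 1 or 2 or MTX+nitrate library 1 or 2 (adjusted p up to 0.0579). Rspo1, a secreted enhancer of Wnt signalling (chr4:124986430-125009099), was at 0.0617, 0, 0, 0.123 and 0.121 CPM in MTX libraries 1 to 5 and at 2.78, 0.318, 1.33, 0.99 and 0.451 CPM in MTX+nitrate libraries 1 to 5. Control libraries held 1.62 ± 1.27 CPM, against a mean of 1.17 CPM in MTX+nitrate. The transcript was near the limit of detection in MTX, so the fitted log2 change of 4.14 ± 1 (adjusted p = 0.0312) depends on very few counts. It was lost without MTX library 1, 2, 3 or 4 or MTX+nitrate library 1 or 3 (adjusted p up to 0.0725).

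Among the Wnt targets, Nkd1, an inhibitor that the pathway induces in itself, was at 4.56, 3.63, 4.48, 4.8 and 4.42 CPM in MTX libraries 1 to 5. In MTX+nitrate libraries 1 to 5 Nkd1 was at 5.87, 6.31, 6.58, 8.52 and 6.26 CPM. Controls held 6.22 ± 0.782 CPM. MTX and MTX+nitrate did not overlap, and Nkd1 rose 1.53-fold (log2 0.61 ± 0.14, adjusted p = 0.0302). It was lost without MTX library 1, 2 or 3 or MTX+nitrate library 2, 3 or 4 (up to 0.0711). Lect2, a hepatocyte-secreted target, fell 1.33-fold (adjusted p = 0.0302) and was lost without MTX library 1, 2, 3 or 4 or MTX+nitrate library 1, 2 or 4 (up to 0.0673). The median over the 16 targets was 0.37, with 13 above 0. Axin2 was at 5.37, 4.86, 3.61, 7.08 and 5.99 CPM in MTX libraries 1 to 5 and at 12.4, 9.81, 10.5, 9.24 and 6.09 CPM in MTX+nitrate libraries 1 to 5. Library 5 of MTX+nitrate lay within the MTX range and the other 4 above it, and Axin2 did not pass (log2 0.84 ± 0.25, adjusted p = 0.0676). Sp5 (log2 0.65 ± 0.45, adjusted p = 0.416), the receptor Lgr5 (log2 0.10 ± 0.3, adjusted p = 0.889) and glutamine synthetase, Glul (log2 -0.32 ± 0.15, adjusted p = 0.229), did not pass either. Sp5 averaged 0.833 CPM in MTX and 1.31 CPM in MTX+nitrate, with controls at 1.46 to 3.47 CPM. Lgr5 averaged 3.88 and 4.14 CPM, with controls at 2.21 to 5.38 CPM. β-Catenin itself, Ctnnb1, was at 254 ± 10.9 CPM in MTX and 251 ± 4.98 CPM in MTX+nitrate (log2 -0.01 ± 0.07, adjusted p = 0.933).

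Of 30 pericentral hepatocyte genes, Cyp7a1 rose and 5 fell (20% called, median log2 fold change -0.24), against 4.31% called over all genes. Cyp3a11, a drug-metabolising cytochrome P450, was at 4470, 4680, 4550, 5240 and 5920 CPM in MTX libraries 1 to 5 and at 3280, 3610, 3170, 3330 and 1940 CPM in MTX+nitrate libraries 1 to 5. No library overlapped, and Cyp3a11 fell 1.62-fold (log2 -0.70 ± 0.14, adjusted p = 0.0209) in all 10 fits. Rgn, a calcium-binding protein, fell 1.26-fold (adjusted p = 0.025) and Cyp2c29 1.7-fold (4120 ± 611 to 2431 ± 543 CPM, adjusted p = 0.0305). The remaining pericentral genes that fell were Lect2 and Cyp2c50 (1.35-fold, adjusted p = 0.043). Of 45 cytochrome P450 genes of families 1 to 3, 4 fell and none rose (median -0.12), against 1.94% lower over all genes, and Cyp3a25 (1.42-fold, adjusted p = 0.0464) was the 4th. Rgn was lost without MTX library 2 or 3 or MTX+nitrate library 1 or 2 (adjusted p up to 0.0586), and Cyp2c29 without MTX library 2, 3 or 4 or MTX+nitrate library 1, 2 or 3 (0.0679). Cyp2c50 was called in the fit without MTX library 5 alone (up to 0.094) and Cyp3a25 in that without MTX+nitrate library 1 alone (up to 0.0999). Reads of such near-identical paralogs may be split between them. Of 54 conjugating enzymes and carboxylesterases 5 fell and none rose (median -0.2). With length and GC offsets 0 of the 45 cytochrome P450 genes were called, 1 of the 54 conjugating enzymes was lower, and of the 30 pericentral genes 1 was higher and 1 lower. No member of the 24 periportal and urea cycle genes was called (lowest adjusted p 0.157, median -0.07).

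Several called falls of large size were in genes of macrophages and chemokines, and the MTX libraries differed strongly in them. Gpnmb, a membrane glycoprotein of lipid-laden macrophages named after its values were seen, was at 22.2, 10.1, 0.175, 3.02 and 16.1 CPM in MTX libraries 1 to 5 and at 0.682, 0.583, 0.344, 0 and 0 CPM in MTX+nitrate libraries 1 to 5. MTX libraries 1, 2 and 5 were high, 4 was intermediate and 3 lay within the MTX+nitrate range. The fitted fall was by 4.95 on the log2 scale (SE 0.97, adjusted p = 0.0182) and held in all 10 fits. Ccl2, the monocyte attractant, was at 10.9, 4.86, 0.408, 1.35 and 12.2 CPM in MTX libraries 1 to 5 and at 1.1, 0.265, 0.246, 0.275 and 0.226 CPM in MTX+nitrate libraries 1 to 5. MTX libraries 1, 2 and 5 were again the high ones, and Ccl2 fell 13.8-fold (log2 -3.79 ± 0.77, adjusted p = 0.0203) in all 10 fits.

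The same order of MTX libraries recurred in other members. Lgals3, the macrophage lectin galectin-3, was at 23.6, 14.9, 2.91, 6.22 and 25.5 CPM in MTX libraries 1 to 5 and at 2.47 to 5.11 CPM in MTX+nitrate (4.38-fold lower, adjusted p = 0.0245, up to 0.058 without MTX library 1 or MTX+nitrate library 2). Mmp12, the macrophage elastase, fell 11.9-fold (7.22 ± 5.84 to 0.597 ± 0.626 CPM, adjusted p = 0.025), and MTX library 3 held 0.233 CPM. The chemokine receptor Ccr1 fell 9.45-fold (2.14 ± 1.76 to 0.216 ± 0.204 CPM, adjusted p = 0.0286). The macrophage chitinase-like gene Chil3 fell 9.58-fold (3.04 ± 2.2 to 0.303 ± 0.439 CPM, adjusted p = 0.0393). Levels of Ccr1 and Chil3 were low, so their fold changes depend on few counts. The interleukin-1 receptor antagonist Il1rn fell 5.41-fold (10.3 ± 7.66 to 1.9 ± 0.99 CPM, adjusted p = 0.025). Lgals3, Mmp12 and Ccr1 were named after their values were seen. Osteopontin, Spp1, which is on the list of cholangiocyte markers, was at 251, 128, 42.3, 89 and 173 CPM in MTX libraries 1 to 5 and at 35.2, 39.2, 37.1, 35 and 38 CPM in MTX+nitrate libraries 1 to 5. Every MTX library was above every MTX+nitrate library, MTX library 3 by little, and Spp1 fell 3.7-fold (log2 -1.89 ± 0.32, adjusted p = 0.00934) in all 10 fits. Cxcl1, a neutrophil attractant, followed another order. It was at 20.1, 7.91, 13.6, 20.3 and 15.7 CPM in MTX libraries 1 to 5 and 2.46 to 8.41 CPM in MTX+nitrate (3.37-fold lower, adjusted p = 0.0102, all 10 fits).

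The calls of Mmp12, Ccr1, Chil3 and Il1rn depended on single libraries. That of Mmp12 was lost without MTX library 1 or MTX+nitrate library 2, 3 or 4 (adjusted p up to 0.062) and that of Il1rn without MTX library 1 or MTX+nitrate library 2 or 4 (up to 0.0623). Ccr1 was lost without MTX library 1, 2 or 5 or MTX+nitrate library 1, 2 or 4 (up to 0.0626), and Chil3 without MTX library 1, 2 or 5 or MTX+nitrate library 1, 2, 4 or 5 (up to 0.0867). With limma-voom the adjusted p was 0.236 for Gpnmb, 0.138 for Ccl2, 0.0933 for Lgals3 and 0.195 for Mmp12, while Spp1 (0.0216) and Cxcl1 (0.0128) stayed called.

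Markers of cell types set these falls in a wider frame. In bulk tissue, fewer cells of a type and less RNA per cell cannot be told apart. Of 20 Kupffer cell markers none was called (lowest adjusted p 0.0818, for Cd68, 18 of 20 with a log2 change at or under 0), and their summed level was 604 to 906 CPM in MTX and 500 to 839 CPM in MTX+nitrate. Of 14 monocyte and dendritic cell markers Chil3 was the 1 called (7.14%, against 4.31% called and 1.94% lower over all genes). Of 6 neutrophil markers tested 3 fell: Mmp9, S100a8 and Lcn2. Mmp9 fell 9.44-fold (2.76 ± 2.69 to 0.284 ± 0.175 CPM, adjusted p = 0.025, up to 0.0671 without MTX library 1 or MTX+nitrate library 2 or 3). S100a8 fell 7.76-fold (1.29 ± 1.19 to 0.16 ± 0.0411 CPM, adjusted p = 0.0395), called in the fits without MTX libraries 3 and 4 alone (up to 0.106). The fold changes of Mmp9 and S100a8 depend on few counts. The summed level of the 16 neutrophil markers was 71.4 to 448 CPM in MTX and 37.4 to 133 CPM in MTX+nitrate, and Lcn2, which hepatocytes also make, gave most of it. Spp1 was the 1 called of 11 cholangiocyte markers tested (9.09%), and 3 of the 11 had a log2 change above 0. The 15 cholangiocyte markers summed to 175 to 399 CPM in MTX and 161 to 181 CPM in MTX+nitrate. Spp1 alone averaged 137 and 36.9 CPM. How far changes of cell numbers take part in the falls was not tested.

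**Figure D3:**
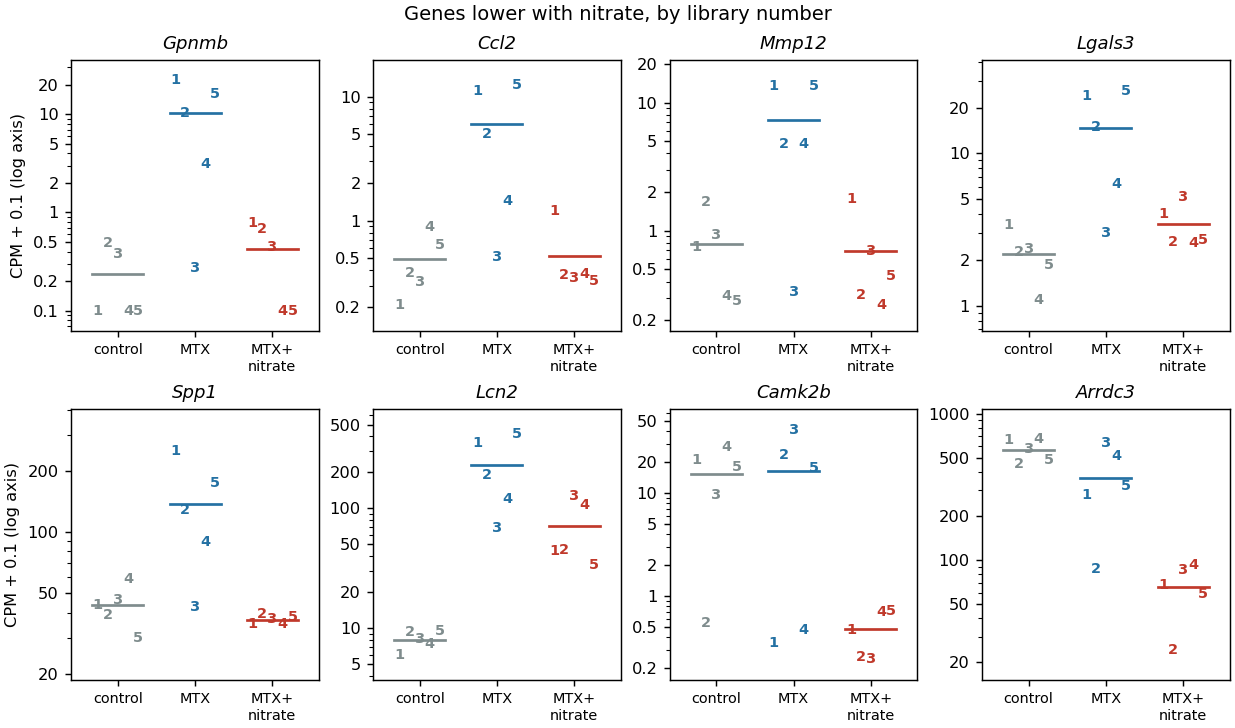
CPM plus 0.1 on log axes for 8 genes that were lower with nitrate, with each digit a library by its number and each line a group mean (n = 5). MTX library 3 is the lowest of its group for Gpnmb, Ccl2, Mmp12, Lgals3, Spp1 and Lcn2 and the highest for Camk2b and Arrdc3.

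Acute phase genes, whose products hepatocytes secrete in inflammation, had 8 of 35 members lower and none higher, against 1.94% lower over all genes (median log2 fold change -0.39, 3 of 35 above 0). Serpina3m, a serine protease inhibitor, fell from 556 to 735 CPM in MTX to 363 to 518 CPM in MTX+nitrate (1.46-fold, adjusted p = 0.022, all 10 fits), and it overlaps Serpina3k on the same strand. C-reactive protein, Crp, fell 1.34-fold (322 ± 32.5 to 240 ± 15.4 CPM, adjusted p = 0.025) and ceruloplasmin, Cp, 1.33-fold (2093 ± 288 to 1571 ± 89.5 CPM, adjusted p = 0.0262). Haptoglobin, Hp, was at 5682 ± 1419 CPM in MTX, 3620 ± 531 CPM in MTX+nitrate and 2098 ± 321 CPM in control (1.57-fold lower with nitrate, adjusted p = 0.0319). The orosomucoid gene Orm1 fell 1.46-fold (adjusted p = 0.0302), and both were named after their values were seen. Lcn2 was at 353, 190, 68.2, 119 and 420 CPM in MTX libraries 1 to 5 and at 43.6, 44.8, 126, 106 and 33.8 CPM in MTX+nitrate libraries 1 to 5. The groups overlapped, controls held 5.84 to 9.29 CPM, and Lcn2 fell 3.24-fold (log2 -1.70 ± 0.44, adjusted p = 0.0393). Saa1, the most inducible member, did not pass: MTX libraries held 260 to 1910 CPM and MTX+nitrate libraries 316 to 767 CPM (log2 -1.05 ± 0.43, adjusted p = 0.162).

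Apart from that of Serpina3m, the acute phase calls named depended on single libraries. Crp was lost without MTX library 1 or MTX+nitrate library 2 (adjusted p up to 0.0638), Cp without MTX library 1 or MTX+nitrate library 1 or 3 (0.0655) and Orm1 without MTX library 1 or MTX+nitrate library 1, 2, 3 or 4 (0.0709). Hp was lost without MTX library 1, 2 or 5 or MTX+nitrate library 1, 2, 4 or 5 (0.0759), and Lcn2 without MTX library 1, 2 or 5 or MTX+nitrate library 1, 2 or 5 (0.0878). Of 31 NF-κB and cytokine genes 3 fell (9.68%), Cxcl1, Ccl2 and Il1rn, and none rose (median -0.14), against 1.94% lower over all genes. Of 38 complement and coagulation genes 3 fell (7.89%, median -0.15), led by mannose-binding lectin Mbl1 (1.35-fold, adjusted p = 0.022, 0.0535 without MTX library 1). Of 27 genes of protein folding in the endoplasmic reticulum 3 fell (11.1%, median -0.42, 2 of 27 above 0). These included the oxidoreductase Ero1lb (1.51-fold, adjusted p = 0.025, up to 0.0579 without MTX library 1 or 2 or MTX+nitrate library 2 or 3) and Xbp1, the transcription factor of the unfolded protein response (1.39-fold, adjusted p = 0.0339, called in the fits without MTX libraries 4 and 5 and MTX+nitrate library 5 alone, up to 0.0797). Of 45 interferon-stimulated genes none was called (lowest adjusted p 0.0908).

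Camk2b, a calcium/calmodulin-dependent kinase subunit named after its values were seen, had the lowest log2 change of all called genes. Camk2b was at 0.247, 23.3, 40.4, 0.369 and 17.2 CPM in MTX libraries 1 to 5, at 0.367, 0.159, 0.147, 0.605 and 0.621 CPM in MTX+nitrate libraries 1 to 5, and at 20.6, 0.445, 9.37, 27.9 and 17.6 CPM in control libraries 1 to 5. The levels fell into a low and a high range: all 5 MTX+nitrate libraries, 2 MTX libraries and 1 control library were low. The log2 change of -5.42 ± 1.22 (adjusted p = 0.025) was lost without MTX+nitrate library 1, 2 or 3 (adjusted p up to 0.0596) and with limma-voom (0.486).

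Endothelial genes formed the list with the largest share of rises among those plotted. Of 24 markers of liver sinusoidal endothelial cells, which line the capillaries, 7 rose and none fell, against 2.37% higher over all genes. All 24 had a log2 change above 0 (median 0.44). Endoglin, Eng, was at 67.5, 57, 62.4, 73.7 and 78.8 CPM in MTX libraries 1 to 5 and at 106, 108, 86.5, 94.3 and 95.2 CPM in MTX+nitrate libraries 1 to 5. No library overlapped, and Eng rose 1.44-fold (log2 0.53 ± 0.1, adjusted p = 0.0157) in all 10 fits, although Fpgs overlaps it on the other strand. The receptor of lymphatic and sinusoidal vessels Flt4 rose 1.66-fold (20.3 ± 2.85 to 33.8 ± 7.09 CPM, adjusted p = 0.024), Oit3 1.58-fold (15.4 ± 2.73 to 24.4 ± 4.71 CPM, adjusted p = 0.0245) and the VEGF receptor Kdr 1.67-fold (33.3 ± 7.28 to 55.5 ± 11.2 CPM, adjusted p = 0.0323). Flt4 was lost without MTX library 1 or 2 or MTX+nitrate library 2 (adjusted p up to 0.0578), Oit3 without MTX library 1 or 2 or MTX+nitrate library 3 (0.0596), and Kdr without MTX library 1 or 2 or MTX+nitrate library 1, 2, 3 or 4 (0.0796). The summed level of the 24 markers was 552 to 800 CPM in MTX and 796 to 1080 CPM in MTX+nitrate. Klf2, the shear-responsive endothelial factor, rose 2.01-fold (5.1 ± 0.802 to 10.3 ± 3.24 CPM, adjusted p = 0.0343) and was called in 3 of 10 fits, those without MTX library 3 and MTX+nitrate libraries 1 and 5 (up to 0.086). With offsets for transcript length and GC content, 1 of the 24 markers, Oit3, was called, and the median was 0.32.

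Genes of stellate cells and matrix rose in 2 of 32 cases (6.25%, median 0.17, 23 of 32 above 0), against 2.37% higher over all genes. Timp2, an inhibitor of metalloproteinases, rose 1.61-fold (adjusted p = 0.0296), and the collagen VI chain Col6a1 rose 1.94-fold (13.7 ± 1.68 to 26.7 ± 6.02 CPM, adjusted p = 0.0299). Timp2 was lost without MTX library 1, 2 or 3 or MTX+nitrate library 1, 2 or 3 (up to 0.0693), and Col6a1 without MTX library 1, 2 or 3 or MTX+nitrate library 1 (up to 0.0679). The summed level of the 33 genes was 1320 to 1930 CPM in MTX and 1440 to 2150 CPM in MTX+nitrate. Of 29 genes responding to YAP or TGF-β, 3 rose and 1 fell (13.8% called, median 0.14), against 4.31% called over all genes. Smad7, the inhibitor of TGF-β receptors, rose 1.98-fold (13.9 ± 4.23 to 27.4 ± 7.5 CPM, adjusted p = 0.022, 0.0505 without MTX library 1). Skil, a nuclear repressor of SMADs, rose 1.69-fold (adjusted p = 0.025, up to 0.0579 without MTX library 1 or 4 or MTX+nitrate library 4). Ctgf, the connective tissue growth factor, rose 2.38-fold (14.7 ± 8.61 to 35 ± 10.9 CPM, adjusted p = 0.0462), and of the 10 fits the one without MTX library 1 called it (up to 0.0959). The integrin gene Itga8, named after its values were seen, rose from 5.18 to 13.3 CPM in MTX to 14.3 to 29.8 CPM in MTX+nitrate (2.37-fold, adjusted p = 0.022, all 10 fits).

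**Figure D4:**
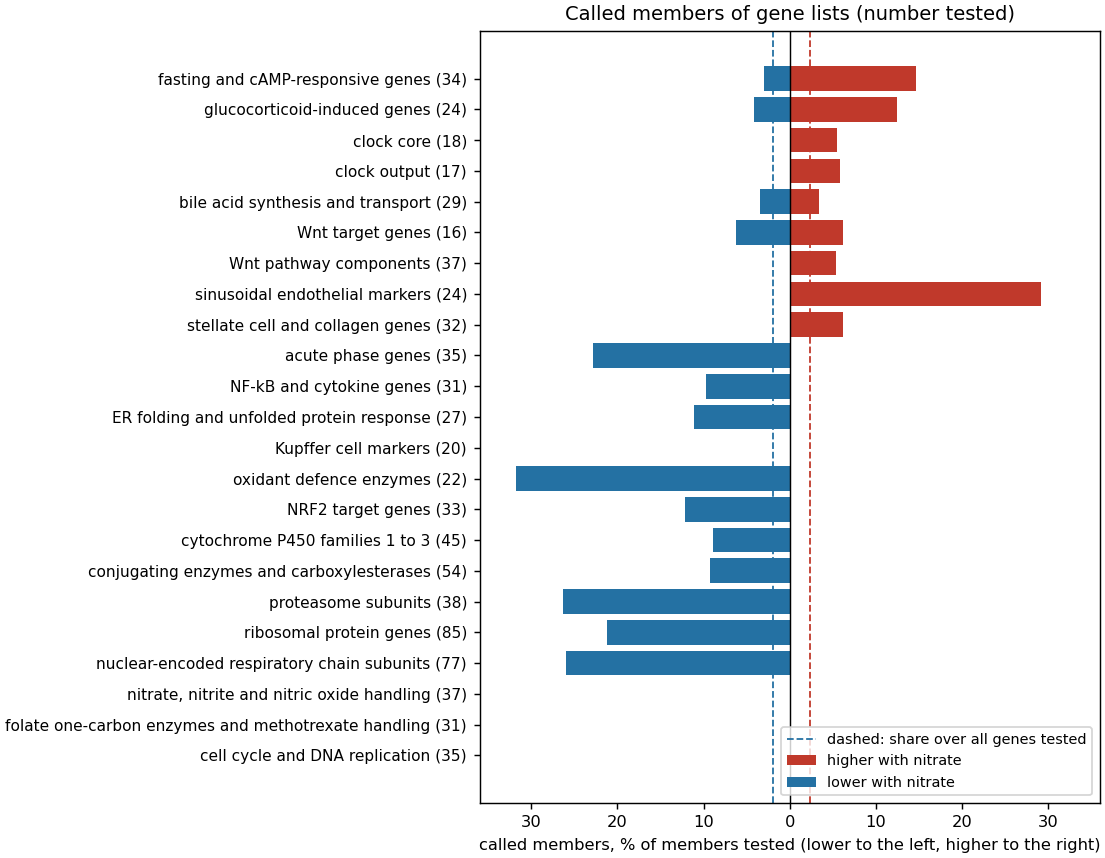
Percent of the members tested of 23 gene lists that were called lower (bars to the left) or higher (bars to the right) with nitrate, with the share over all genes as dashed lines (1.94% lower, 2.37% higher). Sinusoidal endothelial markers reach 29.2% higher, oxidant defence enzymes 31.8% lower, and the nitrate, folate and cell cycle lists have no called member.

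Of 22 oxidant defence enzymes 7 fell, none rose and 15 were not called, against 1.94% lower over all genes (median log2 fold change -0.2, 2 of 22 above 0). Prdx1, a peroxiredoxin that reduces hydrogen peroxide (chr4:116685544-116700822), was at 940, 968, 1050, 824 and 867 CPM in MTX libraries 1 to 5 and at 657, 603, 688, 639 and 662 CPM in MTX+nitrate libraries 1 to 5. No library overlapped, the MTX+nitrate values lay in the control range of 606 to 745 CPM, and Prdx1 fell 1.43-fold (log2 -0.52 ± 0.08, adjusted p = 0.00699) in all 10 fits. Gpx4, which reduces lipid peroxides, fell 1.43-fold (181 ± 14.2 to 127 ± 20.9 CPM, adjusted p = 0.0245), Gpx1 1.33-fold (1805 ± 163 to 1355 ± 181 CPM, adjusted p = 0.0297) and glutaredoxin, Glrx, 1.32-fold (59.9 ± 4.11 to 45.3 ± 2.96 CPM, adjusted p = 0.022). Of 33 NRF2 target genes 4 fell and none rose (median -0.08): Prdx1, thioredoxin Txn1 (1.28-fold, adjusted p = 0.024), the ferritin heavy chain Fth1 (1.21-fold, adjusted p = 0.0319) and Osgin1 (1.69-fold, adjusted p = 0.025). Gpx4 and Txn1 were lost without MTX library 1 or MTX+nitrate library 2 (adjusted p up to 0.0579), Glrx without MTX+nitrate library 2 (0.0511) and Gpx1 without MTX library 1 or 2 or MTX+nitrate library 1 or 4 (0.0672). Osgin1 was lost without MTX library 1 or MTX+nitrate library 2 or 3 (0.0623), and Fth1 was called in the fits without MTX library 5 and MTX+nitrate library 3 alone (up to 0.0694).

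Some genes of 4 large cellular machines fell by small amounts, while most of their members were not called. Of 85 ribosomal protein genes 18 fell (median -0.36, 3 of 85 above 0), of 77 nuclear-encoded respiratory chain subunits 20 fell (median -0.27), of 38 proteasome subunits 10 fell (median -0.29) and of 26 mitochondrially encoded genes 5 fell (median -0.65), with no rise in any of them. In this order the shares were 21.2%, 26%, 26.3% and 19.2%, against 1.94% lower over all genes. Rps3, of the small ribosomal subunit, was at 309 to 371 CPM in MTX and 210 to 260 CPM in MTX+nitrate (1.44-fold lower, adjusted p = 0.00699). Psmb1, a core proteasome subunit, fell from 138 ± 12.1 to 105 ± 6.16 CPM (1.32-fold, adjusted p = 0.0181). Both held in all 10 fits. The complex I subunits Ndufb11, Ndufb9 and Ndufa4 fell 1.37-, 1.35- and 1.34-fold (adjusted p = 0.0234, 0.024 and 0.0245). Ndufb11 overlaps Rbm10 on the other strand. Ndufb11, Ndufb9 and Ndufa4 were lost without MTX library 1, and Ndufb9 also without MTX library 2 (adjusted p up to 0.0577). Rpl35a (1.76-fold, adjusted p = 0.025) and Rpl41 (1.77-fold, adjusted p = 0.0296) were among the largest falls. Rpl35a was lost without MTX library 1 or 3 or MTX+nitrate library 3 (up to 0.0568), and Rpl41 without MTX library 1 or 2 or MTX+nitrate library 2 or 4 (up to 0.0658). The mitochondrial transfer RNA gene mt-Tl2, which overlaps mt-Ts2, fell 2.79-fold (adjusted p = 0.0174) in all 10 fits. Ribosomal protein and mitochondrial genes have near-identical copies whose reads the counting may split.

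A trend on transcript length moved with these groups. Called genes that were lower had a median transcript of 1733 bases and those that were higher 4671 bases, against 3183 bases over all genes. When the deviation of each gene from its mean was correlated with the length of its transcript, r was -0.238, -0.209, -0.239, -0.216 and 0.0054 in MTX libraries 1 to 5 and 0.129, 0.0572, 0.078, 0.141 and -0.0611 in MTX+nitrate libraries 1 to 5. MTX libraries 1 to 4 stood apart from all others, MTX library 5 did not (exact permutation p = 0.0159, adjusted p = 0.0714). This r runs across genes, which do not count as replicates. With offsets for length and GC content 261 genes (1.84%) were called, 99 higher (0.697%) and 162 lower (1.14%), among them 93 of the 337 higher and 90 of the 276 lower genes. The called members then numbered 5 of 85 ribosomal protein genes, 5 of 77 respiratory chain subunits, 2 of 38 proteasome subunits, 0 of 26 mitochondrially encoded genes, 4 of 22 oxidant defence enzymes and 3 of 35 acute phase genes. Noct, Per1, Sgk1, Rasgef1b, Cyp7a1, Sik1, Spp1, Gpnmb, Ccl2, Arrdc3, Prdx1 and Rps3 stayed called (adjusted p up to 0.0323), while Cyp3a11 (0.0541), Eng (0.063), Cebpb (0.0628) and mt-Tl2 (0.0664) did not. Whether the trend comes from the samples' RNA or from the livers was not tested.

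**Figure D5:**
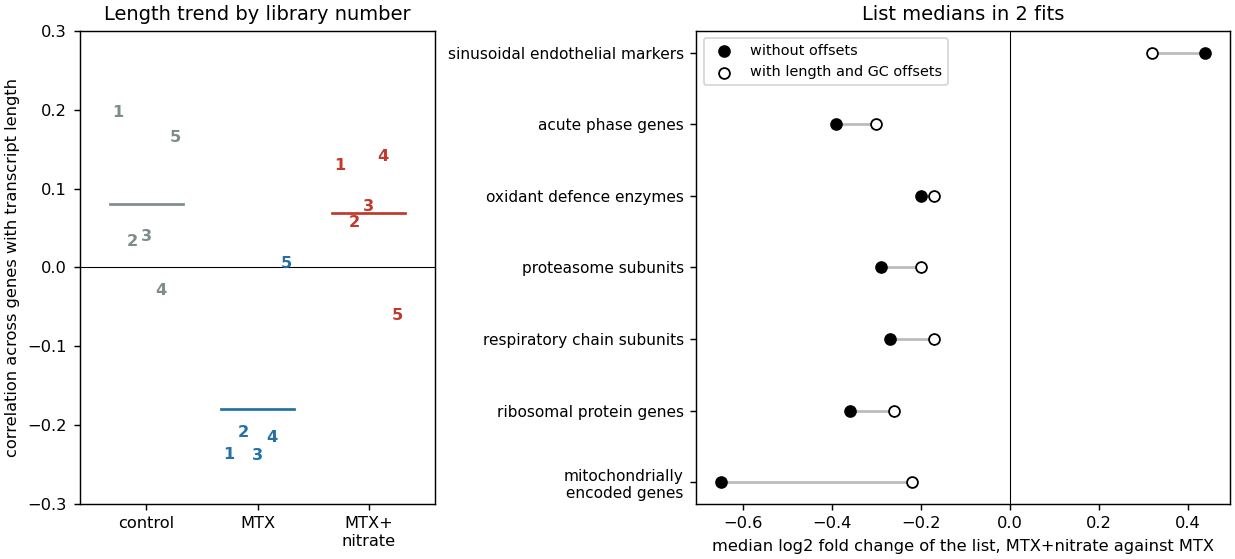
Left, correlation (r, across genes) between the deviation of expression and transcript length in each library, by number, with group means as lines (n = 5), where MTX libraries 1 to 4 lie between -0.239 and -0.209. Right, median log2 fold change of 7 gene lists without (filled) and with (open) length and GC offsets, where mitochondrially encoded genes move from -0.65 to -0.22.

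The remaining largest falls came from several functions. Kyat3, a kynurenine aminotransferase, fell from 184 to 242 CPM in MTX to 106 to 160 CPM in MTX+nitrate (1.66-fold, adjusted p = 0.022, all 10 fits). Apobec1, the editing enzyme of apolipoprotein B mRNA, was at 68.5, 33.5, 25.2, 25.9 and 32.4 CPM in MTX libraries 1 to 5 and 14.7 to 21.2 CPM in MTX+nitrate. MTX library 1 was far above the rest, and Apobec1 fell 2.01-fold (adjusted p = 0.024, 0.056 without MTX+nitrate library 2). Clec2d, a lectin-like receptor gene, fell 1.78-fold (adjusted p = 0.0249, up to 0.0583 without MTX library 1 or MTX+nitrate library 1 or 2). Rapgef4, a cAMP-activated exchange factor, fell 1.73-fold (0.0334, up to 0.0773 without MTX library 1 or 5 or MTX+nitrate library 2, 3 or 4). The ephrin gene Efna1 fell 1.85-fold (0.0345, up to 0.0759 without MTX library 1 or 4 or MTX+nitrate library 2, 3 or 5). Banp fell 1.82-fold (0.0323) and was lost without any of MTX libraries 1 to 3 or MTX+nitrate libraries 1 to 3 (up to 0.0757). Ugt2b38, a glucuronosyltransferase with close paralogs, fell 1.86-fold (0.0306, up to 0.0679 without MTX library 4 or 5 or MTX+nitrate library 2, 3 or 4), and Wfdc21 fell 1.64-fold (0.0481), called in the fit without MTX+nitrate library 5 alone (up to 0.0956). Hepatocyte markers as a list had 3 of 20 members lower (15%, median -0.19), against 1.94% lower over all genes. They were Cyp3a11, the tryptophan dioxygenase Tdo2 (1.59-fold, adjusted p = 0.0263, up to 0.0551 without MTX library 3 or 4 or MTX+nitrate library 1, 2 or 4) and the hepatocyte factor Cebpa (1.37-fold, adjusted p = 0.0339, called in the fits without MTX library 5 and MTX+nitrate library 4 alone, up to 0.0766).

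The lists closest to the treatments themselves had no called gene. Of 37 genes handling nitrate, nitrite and nitric oxide none passed (median -0.02). The lowest p-values belonged to the reductase Akr1a1 (350 ± 20.9 to 295 ± 11.1 CPM, adjusted p = 0.0621) and to Gucy1a1, a subunit of the nitric oxide receptor guanylate cyclase (10.9 ± 1.84 to 15.3 ± 3.04 CPM, adjusted p = 0.0631). The endothelial nitric oxide synthase gene Nos3 was at 2.92 ± 0.509 and 3.14 ± 0.484 CPM (adjusted p = 0.825), the nitrite-reducing xanthine dehydrogenase gene Xdh at 108 ± 11.6 and 109 ± 14.8 CPM (adjusted p = 0.967) and Slc17a5, which encodes the nitrate transporter sialin, at 38.8 ± 7.93 and 37.5 ± 9.3 CPM (adjusted p = 0.891). Nos2 had too few counts to be tested. Of 31 folate and methotrexate genes none passed (median 0.01, 4 at an unadjusted p under 0.05), with thymidylate synthase, Tyms, at 7.17 ± 1.46 and 5.07 ± 0.659 CPM (adjusted p = 0.129). None was called of the purine and pyrimidine (47), methionine and transsulfuration (22), cell cycle (35), fatty acid synthesis (31) or drug transporter (31) genes. In this order 7, 3, 4, 3 and 6 of them reached an unadjusted p under 0.05, against 3184 of all 14219 genes tested. These counts give no interval for the difference, and a missed threshold does not show that the levels were alike.

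Transcription factors as annotated in the deposited table were called in 5.23% of 879 cases, 37 higher and 9 lower, against 4.31% over all genes. Among those not yet named, and named after their values were seen, Rarg, a retinoic acid receptor, rose from 4.6 to 5.88 CPM in MTX to 9.48 to 13.6 CPM in MTX+nitrate (log2 1.02 ± 0.21, adjusted p = 0.0191). The thyroid hormone receptor gene Thra rose by 0.57 on the log2 scale (adjusted p = 0.0157), and it overlaps Nr1d1 on the other strand. Ets1, a factor of endothelial and lymphoid cells, rose by 0.59 (adjusted p = 0.013). All 3 calls held in all 10 fits, and the groups did not overlap for any of them.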

How the data were processed

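RNA of mouse liver was sequenced, and the authors deposited 1 table of counts per gene for all 15 libraries, with 54532 genes. The submitters' processing notes name GRCm38 and mm10 as the genome build. For the aligner, the counter, its strand setting and the annotation, nothing is stated in the sources used here. The 10 libraries compared held 17273003 to 19274497 counts, so intervals and p-values of low genes rest on few counts.

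Libraries were grouped by title. edgeR 4.0.16 (R 4.3.3) filtered low genes by its default rule, scaled the libraries by trimmed means of M values (TMM) and fitted a quasi-likelihood model over all 3 groups (common biological coefficient of variation 0.223, 12 residual degrees of freedom), and 14219 genes were tested with Benjamini-Hochberg adjustment. The standard error is the log2 fold change divided by the square root of the F statistic. The fit was tested on simulated data. DESeq2 1.42.0, limma-voom 3.58.1, other filters and scalings, a replicate block, offsets for transcript length and GC content from mgcv 1.9.3 trends, and leaving out each library were tried as alternatives. Named by rule were the 15 largest called rises and falls with at least 2 CPM in the higher group, no overlap of libraries and no predicted gene model, up to 4 called members of each list, the 2 lowest p-values of lists with none, and 21 fixed genes. Some genes that the rule names are not reported here. Other genes are said to be named after their values were seen. The comparison and its 64 gene lists were chosen with earlier results of these data known. No pair of the libraries agreed within sampling noise (chi-square per gene 23.3 to 59.2 over 20 pairs).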

Additional observations from a re-analysis of the deposited data

Results flagged for a closer look

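In 242 groups of 5 libraries over 121 genes, 17 had 1 library whose gap to its nearest neighbour took more than 0.71 of the group's range. Chance gives such a gap in about 1 in 20 groups.

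MTX+nitrate library 1 stood apart 4 times: low for Per1 at 13.9 CPM and Cyp2c50 at 352 CPM, and high for Ccl2 at 1.1 CPM and Mmp12 at 1.68 CPM. MTX+nitrate library 4 also stood apart 4 times, low for Ndufb9 at 33.6 CPM and high for Nkd1 at 8.52 CPM, Cyp2c29 at 3400 CPM and Sytl1 at 5.22 CPM. MTX+nitrate library 3 was high for Chil3 at 1.08 CPM and Saa1 at 767 CPM, and MTX+nitrate library 5 was low for Cyp3a11 at 1940 CPM.

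In the MTX group, library 1 was high for Apobec1 at 68.5 CPM, library 3 for Psmb1 at 159 CPM and Rpl35a at 75.2 CPM, library 4 for Sp5 at 1.66 CPM and Xdh at 129 CPM, and library 5 for Wfdc21 at 190 CPM. Of these genes, Per1, Ccl2, Cyp3a11 and Psmb1 stayed called in all 10 fits that left out 1 library. Saa1, Sp5 and Xdh were not called. Causes of the single high or low values were not tested.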

How the results depend on the processing

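Against 613 called genes (337 higher, 276 lower), median-of-ratios scaling, a filter of 1 CPM in 5 libraries and limma-voom each stayed within 1.5 times. Without an expression filter 384 genes were called (222 higher, 162 lower), with a fit over the 2 groups 248 (170 and 78), with length and GC offsets 261 (99 and 162), with DESeq2 1167 (558 and 609) and at a threshold of 0.01 30 (26 and 4). Leaving out 1 library of the 2 groups gave 166 to 600 called genes, 107 to 294 higher and 59 to 306 lower, and leaving out a control 497 to 547 (276 to 313 higher, 217 to 237 lower). Why these counts differed was not tested.

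A replicate block gave 129 called genes (89 higher, 40 lower), and with length and GC offsets 24 (13 and 11). Same-numbered libraries did not deviate together across genes (correlations -0.173 to 0.0636). Whether the numbers stand for a pairing or a batch is not stated in the labels, and these correlations cannot decide it. Of 106 called genes named, 59 were lost with the block, 41 with the offsets and 92 with both. The fit over the 2 groups, without the controls, lost 29 of them and limma-voom 15. Leaving out 1 library of the 2 groups lost 12 to 55.

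The genes that changed sign were not called. Per2 reached -0.03 with block and offsets and ranged from -0.16 to 0.45 without 1 library. Nos3 reached -0.1 with offsets and -0.08 with block and offsets. Xdh reached -0.16 with offsets, with and without the block, and -0.04 to 0.08 without 1 library. Without 1 library Lgr5 ranged from -0.09 to 0.29 and Slc17a5 from -0.15 to 0.07.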

Other observations

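Further genes were named after their values were seen and stand for no group. Of the 32 stellate cell and collagen genes listed, 30 were not called. Gdf10, a secreted factor of the TGF-β family, was at 5.49, 8.96, 4.25, 6.46 and 8.17 CPM in MTX libraries 1 to 5 and at 21, 12.1, 11.9, 14.8 and 16.7 CPM in MTX+nitrate libraries 1 to 5. No library overlapped (log2 1.20 ± 0.23 SE, edgeR adjusted p = 0.0174). Adamts5, a protease of proteoglycans, rose by 1.15 (adjusted p = 0.0222), and Podn, a small proteoglycan gene that overlaps Scp2 on the same strand, by 1.12 (adjusted p = 0.024). The transcription factor gene Sall1 rose from 12.8 to 21.9 CPM in MTX to 27.5 to 47.3 CPM in MTX+nitrate (log2 1.07 ± 0.2, adjusted p = 0.0158). These 4 calls held in all 10 fits that left out 1 library.

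The transcription factor gene Wt1 was at 0.123 to 0.847 CPM in MTX and 0.424 to 3.93 CPM in MTX+nitrate (log2 2.38 ± 0.58, adjusted p = 0.0321). It was lost without MTX library 1, 2, 3 or 4 or MTX+nitrate library 1, 3 or 4 (up to 0.0769). The transcription factor gene Tcf21 rose by 0.87 (adjusted p = 0.0292) and was lost without MTX library 1, 2, 3 or 4 or MTX+nitrate library 1 or 2 (up to 0.0613). For both the groups overlapped.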
